A study of Homo sapiens with 4 samples.

Results

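The rows of microRNA precursors were examined in an RNA sequencing study of SH-SY5Y, a human neuroblastoma line that can be turned into neuron-like cells. They are the rows whose name marks a microRNA hairpin, leaving out host genes, with at least 1 FPKM (fragments per kilobase of transcript after scaling to the number mapped) in either group. The rule selected on these same FPKM values, so the members' levels are a description and support nothing by themselves. It left 4 rows, MIR127, MIR432, MIR3661 and MIR3648, out of 1286 microRNA rows and 23576 rows in all. The study compared 2 undifferentiated libraries, collected on day 0, with 2 differentiated libraries, collected on day 16. Differentiated cells had 7 days of retinoic acid at 10 µM in serum and then 9 serum-free days with 20 ng/mL of BDNF, the brain-derived neurotrophic factor. All 4 libraries came from this 1 cell line, grown without any genetic change named in the labels. The authors' table holds 1 FPKM value per gene and group, so values by library and the depth behind them are unknown.

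A microRNA is cut from a hairpin in a longer primary transcript, first in the nucleus by DROSHA with DGCR8 and then in the cytoplasm by DICER1. One arm of the hairpin, the mature microRNA, is loaded into an Argonaute protein and guides it to messenger RNAs, mainly through its seed, the bases 2 to 8 from the 5′ end. Many hairpins lie in introns of protein-coding genes or in long non-coding host transcripts. In neurons and neuroblastoma, miR-124, miR-9 and miR-137 are known for roles in differentiation, the let-7 family for restraining growth genes, and the miR-17 to miR-92a cluster for promoting proliferation. The libraries here were made from fragmented, ribosomal RNA-depleted total RNA with random primers and size-selected at 350 to 500 base pairs, so they were not built to capture mature microRNAs. A row of this table stands for fragments assigned to a hairpin interval, not for the mature molecule.

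The mature sequences are shown because the 4 rows are unlike one another in sequence, and each is placed below by the gene it overlaps. All 4 rows matched mature sequences in the RefSeq table for GRCh38.p14. Capitals mark the seed.
hsa-miR-127-5p: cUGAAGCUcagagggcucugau
hsa-miR-127-3p: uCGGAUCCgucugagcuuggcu
hsa-miR-432-5p: uCUUGGAGuaggucauugggugg
hsa-miR-432-3p: cUGGAUGGcuccuccaugucu
hsa-miR-3661: uGACCUGGgacucggacagcug
hsa-miR-3648: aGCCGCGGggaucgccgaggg
The 6 sequences had 6 different seeds. Of 2545 mature entries in the RefSeq table, miR-631 was the 1 other that shared a seed with any of them, that of miR-3661. Bases G and C made up 81.0% of miR-3648, against a median of 50% over the table's mature entries, and 69 entries were at least as rich. The other 5 sequences held between 52.2% and 63.6% G and C.

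In the authors' table, MIR432 was listed at 678651 FPKM in undifferentiated cells and at 0 in differentiated cells. MIR127 was listed at 253101 FPKM before and 131067 FPKM after differentiation. MIR3661 was listed at 0 before and 168768 FPKM after differentiation. So 2 of the 4 rows were seen in only 1 group, one in each. MIR3648 was far lower than the other 3, with 185 FPKM before and 1027 FPKM after differentiation. MIR432 and MIR127 were the top 2 rows of the whole table in undifferentiated cells, and MIR3661 and MIR127 the top 2 in differentiated cells. The highest row outside the 4 was RNU11, a small RNA of the minor spliceosome, at 101936 FPKM before and 83046 FPKM after differentiation.

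**Figure D1:**
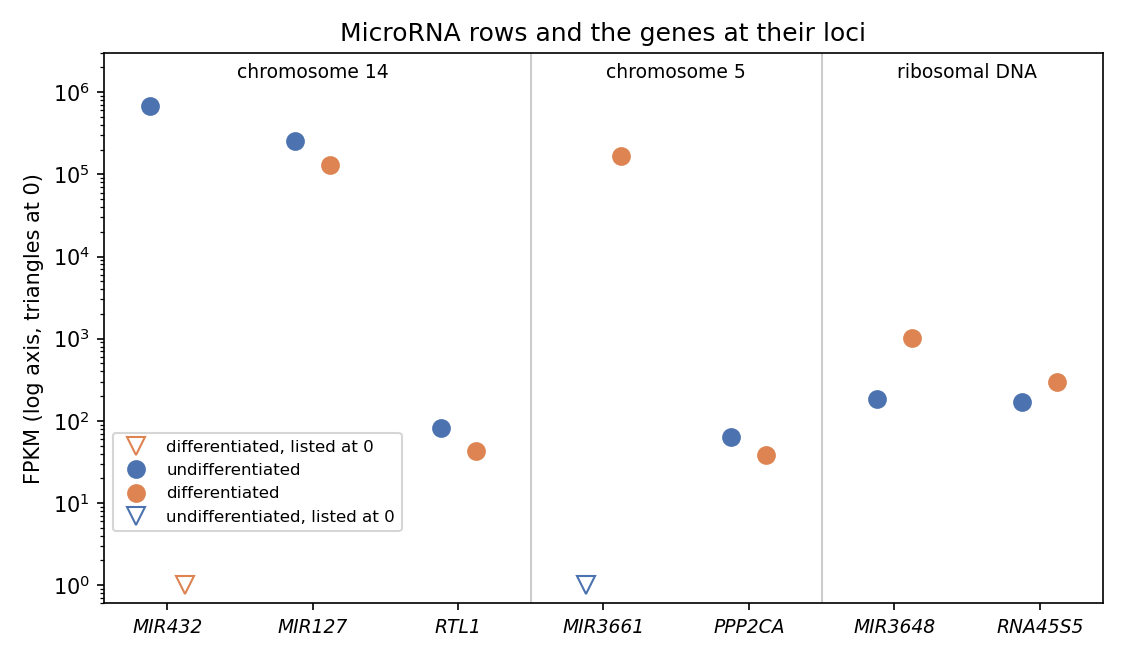
FPKM of the 4 microRNA rows and of a gene at or related to each locus, on a log axis, with undifferentiated cells in blue and differentiated cells in orange; each point is the authors' 1 value for a group and has no error bar. Open triangles mark rows listed at 0: MIR432 in differentiated cells and MIR3661 in undifferentiated cells, while RTL1 and PPP2CA were above 0 in both groups.

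None of the 4 differences was called by the authors' test at a q-value under 0.05, against 30.4% of the 12810 rows they tested. None reached an unadjusted p under 0.05 in the authors' deposited table either. For MIR127 the authors' deposited table gave a log2 fold change of -0.95, differentiated over undifferentiated, with p = 0.965 and q = 0.981. The standard error implied by that fold and the authors' statistic was 21.4 on the log2 scale, with a 95% interval from -43.0 to 41.1. For MIR3648 the authors' deposited table gave a log2 fold change of 2.47, with p = 0.126 and q = 0.239. Its implied standard error was 1.61 and the interval ran from -0.69 to 5.63. For MIR432 the authors' deposited table gave p = 0.437 and q = 0.590, and for MIR3661 it gave p = 0.462 and q = 0.613. No fold is given for these 2, since 1 group is listed at 0 and the depth is unknown. Thus a difference as wide as 678651 against 0 FPKM was not called by the authors' test, and no error can be derived for that row. Over all 12750 tested rows with a value in both groups, the median implied standard error was 0.39.

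The threshold of 1 FPKM did not divide a continuum. The other 1282 microRNA rows were listed at 0 in both groups and none lay between 0 and 1 FPKM, so the value just outside the threshold was 0 and the lowest inside was MIR3648. The authors marked 1212 of the 1286 rows as not tested, 69 as holding too little data and 1 as failed. A row at 0 says little about transcription of its locus: 781 of the 1282 rows shared their listed locus with another gene. For 177 of them a gene at that locus had at least 10 FPKM in each group, not necessarily the same gene in each. All 26 rows found for a list of 27 neural microRNAs, among them MIR124-1, MIR9-1 and MIR137, were at 0. The same held for all 18 rows of the proliferation list, which includes the MIR17 cluster and MIR21, and for all 12 rows of the let-7 family list.

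MIR127 and MIR432 come from 1 place, the imprinted DLK1 to MEG9 region of chromosome 14. In this region the protein-coding genes DLK1 and RTL1 are expressed from the paternal copy, and the non-coding transcripts and microRNAs from the maternal copy. Both rows carry the locus chr14:101346992-101351184 (hg19), which is the locus of RTL1, a gene of retrotransposon origin. In GENCODE 29 both hairpins lie entirely within the coding part of the single RTL1 exon, on the opposite strand. The hairpin of MIR127 is shown because it is the one member on this locus with a RefSeq hairpin sequence. Capitals mark the 5′ and 3′ arms that become mature microRNAs.
MIR127 hairpin: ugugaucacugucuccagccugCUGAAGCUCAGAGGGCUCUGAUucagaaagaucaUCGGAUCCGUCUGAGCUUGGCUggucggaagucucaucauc
All 97 bases of this hairpin matched the complement of the RTL1 transcript at its bases 1773 to 1869. The MIR432 hairpin, 94 bases long, lies opposite bases 272 to 365 of the same transcript. Each of the 4 mature arms printed above for miR-127 and miR-432 had an exact complement in RTL1 and no match to its sense strand.

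**Figure D2:**
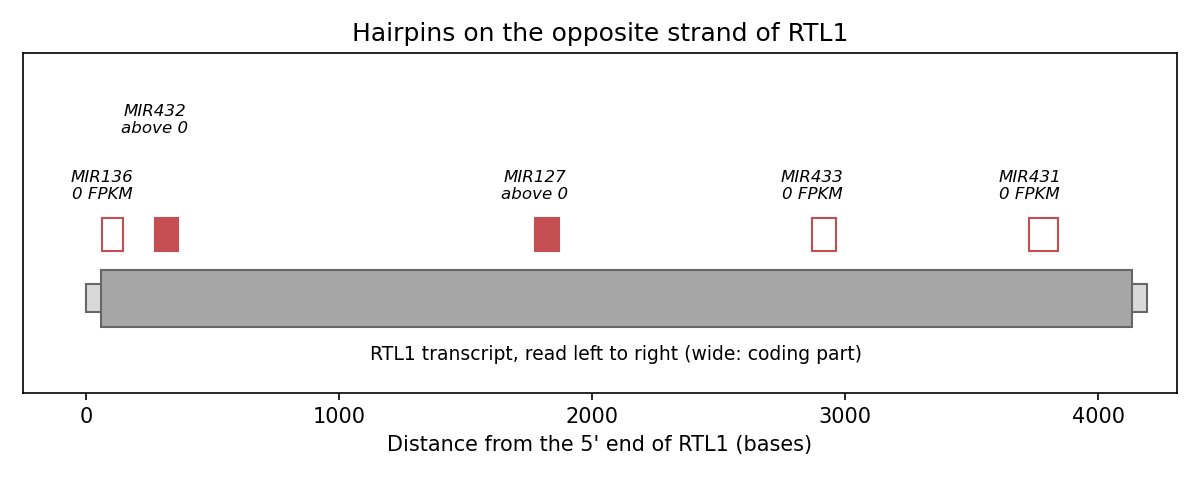
Map of the RTL1 transcript to scale, in bases from its 5′ end, with the 5 hairpins that lie on the opposite strand drawn above it; filled boxes are hairpins listed above 0 FPKM in at least 1 group. MIR432 and MIR127 are filled, while MIR136, MIR433 and MIR431 were at 0 in both groups.

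The RTL1 locus holds 5 microRNA rows, and 3 of them, MIR136, MIR433 and MIR431, were at 0 in both groups. Their hairpins are also complementary to RTL1 along their whole length. Hairpin length did not separate the 2 kinds of row, since MIR431 is the longest at 114 bases, while MIR433 has 93 and MIR136 has 82. RTL1 itself was listed at 82.2 FPKM before and 42.7 FPKM after differentiation. The authors' deposited table called this a fall, with a log2 fold change of -0.94 and q = 0.000344, where 28.0% of all tested rows were called lower. Its implied standard error was 0.22, against 21.4 for MIR127. Set against the median gene, whose log2 fold change was -0.62 because most of the table fell, RTL1 was not called, with an adjusted p of 0.470. MIR127 and RTL1 had nearly the same fold, with a difference of -0.0066 in log2. MIR127 was 3080 times RTL1 in undifferentiated and 3066 times RTL1 in differentiated cells, in FPKM. Whether fragments were assigned by strand is not given in the sources used here, so reads of RTL1 and of hairpins on its other strand cannot be told apart.

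The rest of the chromosome 14 region gave no other microRNA row. Between DLK1 and MEG9 the table has 51 microRNA rows, of which 49 were at 0 in both groups. The maternally expressed non-coding genes, which are host transcripts in this region, were also close to 0. MEG3 was listed at 0.0024 FPKM before and 0.067 FPKM after differentiation. MEG8 was listed at 0.062 and 0.073 FPKM, and MEG9 at 0.080 and 0.075 FPKM, in the same order. None of these 3 genes was tested by the authors. DLK1, a paternally expressed transmembrane ligand related to Notch ligands, was listed at 402 FPKM before and 1153 FPKM after differentiation. The authors' deposited table called this a rise, with a log2 fold change of 1.52 and q = 1.05e-12, where 2.43% of all tested rows were called higher. Thus by the authors' test the 2 coding genes DLK1 and RTL1 moved in opposite directions, and the 3 non-coding genes were all under 0.1 FPKM. Against the median gene only the rise of DLK1 was called, with an adjusted p of 5.71e-25, while RTL1 had an adjusted p of 0.470.

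MIR3661 was the single microRNA row at its place, chr5:133532148-133561950 (hg19). This is the locus of PPP2CA, the catalytic subunit of protein phosphatase 2A. In GENCODE 29 the hairpin of 96 bases lies on the strand opposite to PPP2CA, with 93 bases in coding sequence of the first exon of its main transcript and 3 in the intron. The mature miR-3661 was complementary to bases 345 to 366 of that transcript. PPP2CA was listed at 63.4 FPKM before and 38.6 FPKM after differentiation. The authors' deposited table called this a fall, with a log2 fold change of -0.72 and q = 0.0150. Its implied standard error was 0.24, and against the median gene its adjusted p was 0.910, so the call was lost. MIR3661 was therefore listed above 0 in the group where the gene on the other strand was lower, the reverse of MIR432 and RTL1, and neither microRNA difference was called.

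MIR3648 lies in ribosomal DNA, at chr21:9825832-9826011 (hg19). Its row covers 180 bases, the longest of the 1277 microRNA rows whose length was found in RefSeq, where the median is 82. In RefSeq the hairpin lies inside RNA45SN2, a copy of the precursor of the large ribosomal RNAs. MIR3687, the next microRNA row beside it, was at 0 in both groups. The row for another copy of the ribosomal precursor, RNA45S5, was listed at 168 FPKM before and 299 FPKM after differentiation. The authors' deposited table called this a rise, with a log2 fold change of 0.83 and q = 0.000522. MIR3648 was 1.10 times RNA45S5 in undifferentiated and 3.44 times in differentiated cells, in FPKM. The 2 log2 folds differed by 1.64 with a combined implied error of 1.63, so the difference and its error were of about the same size. The combined error takes the 2 rows as independent, which may not hold where reads can be split between them. RNA5-8S5, a shorter ribosomal row at the locus of RNA45S5, was listed at 0 before and 615 FPKM after differentiation, with p = 0.259 in the authors' deposited table. Ribosomal DNA copies are near-identical, so reads can be split between them, and ribosomal RNA had been depleted from these libraries. The part that uneven depletion has in these ribosomal rows was not tested.

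The 3 highest microRNA rows were also the 3 shortest above 0 among the small RNA rows compared. The microRNA rows were set beside 251 rows of box C/D small nucleolar RNAs (SNORD), 105 rows of box H/ACA small nucleolar RNAs (SNORA) and 24 rows of Cajal body RNAs (SCARNA), which guide chemical modification of ribosomal and spliceosomal RNA. Of these 1666 rows, 67 were above 0 in either group. None of 1163 rows with a RefSeq length of 93 bases or fewer was above 0, and 966 of these were microRNAs. Of 215 rows of 94 to 100 bases, 3 were above 0, namely MIR432, MIR3661 and MIR127. Their higher group ranged from 168768 to 678651 FPKM. Of 124 rows of 101 to 120 bases, 1 was above 0, SNORD8 at 42579 FPKM in its higher group. The share above 0 then rose to 32.8% of 116 rows of 121 to 140 bases and 92.9% of 14 rows longer than 200 bases.

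Over the same steps the level of the rows above 0 fell. The median FPKM of the higher group was 253101 for rows of 94 to 100 bases, 6889 for 121 to 140 bases and 79.7 for rows over 200 bases. Across the 67 rows, length and FPKM of the higher group had a Spearman's rho of -0.66. Without the 4 microRNA rows it was -0.59 over 63 rows. These rows share libraries and the division by length that defines FPKM, so rho is only a description. How much of the trend that division accounts for was not tested. The median implied error was 8.56 for 16 rows of 121 to 140 bases, 14.3 for 10 rows of 141 to 200 bases and 0.75 for 11 rows over 200 bases. A value in 1 group and 0 in the other, as in MIR432 and MIR3661, was seen in 27 of the 67 rows, and 24 of these 27 were SNORA rows.

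**Figure D3:**
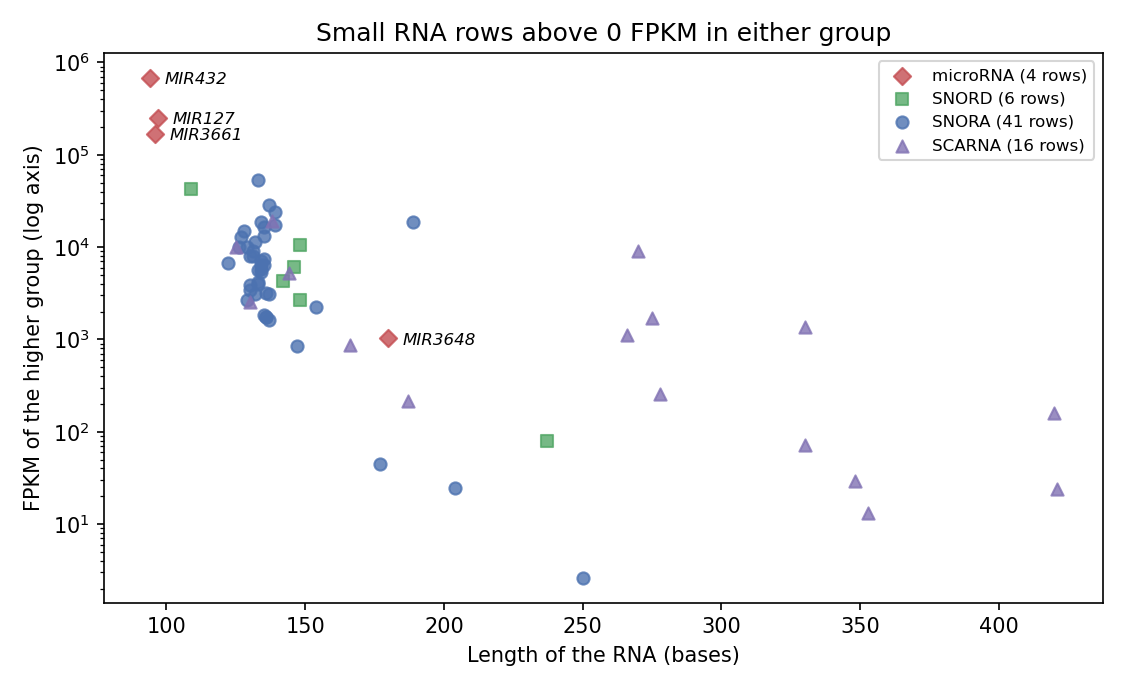
Length of each small RNA in bases against the FPKM of its higher group on a log axis, for the 67 small RNA rows above 0 in either group, coloured by class; each point is 1 row. MIR432, MIR127 and MIR3661 sit at the upper left, at 94 to 97 bases and above all other classes, and MIR3648 lies among the other classes at 180 bases.

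Counts of microRNA rows and other small RNA rows above 0 were set side by side at a like length. Among rows of 94 to 100 bases, 3 of 181 microRNA rows and 0 of 34 other rows were above 0. Among rows of 121 to 140 bases, 0 of 10 microRNA rows and 38 of 106 other rows were above 0. Among rows of 141 to 200 bases, 1 of 9 microRNA rows, MIR3648, and 11 of 16 other rows were above 0. The microRNA rows of at least 94 bases numbered 311, of which 307 were at 0. MicroRNA rows above 0 made up 0.311% of their class, against 2.39% of SNORD rows, 39.0% of SNORA rows and 66.7% of SCARNA rows. These shares were not tested against each other.

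The 4 rows weighed heavily in sums of FPKM. They held 45.6% of the summed FPKM of undifferentiated cells and 25.3% of that of differentiated cells. MIR432 alone held 33.2% in undifferentiated cells, and MIR3661 held 14.2% in differentiated cells. MIR127 held 12.4% and 11.0%, and MIR3648 less than 0.1% in either group. FPKM is divided by length, so these shares are not shares of molecules sequenced.

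Of the microRNA rows at 0, 58 nevertheless carried a fold change other than 0 in the authors' deposited table. For 55 of them it was the fold of a gene at the same locus, to within 1e-05. The listed fold of MIR17, MIR18A, MIR19A, MIR19B1, MIR20A and MIR92A1 was that of their host MIR17HG, at -2.31. The fold of MIR675 was that of H19, at 5.78, the fold of MIR22 was that of MIR22HG, at 1.19, and the fold of MIR9-2 was that of LINC00461, at -1.20, all in the authors' deposited table. Such a fold describes the host row and not the microRNA. The 55 rows pointed to 48 host rows, of which 40 were tested. Of these 40, the authors' deposited table called 17 lower and 1, H19, higher, where 28.0% and 2.43% of all tested rows were called. Against the median gene 3 of them lay below and 3 above, where 4.58% and 5.66% of all genes did. ATF5, one of the tested hosts, was not in that test.

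Since nearly all hairpin rows were at 0, genes known to hold or overlap microRNAs were followed next. The list drawn up for this purpose had 59 entries, counting PPP2CA as a gene overlapping a member, and 58 had a row. Not every entry is a host transcript. The hairpins at RTL1 and PPP2CA lie on the other strand, and both genes are among those called lower below. DNM3 is listed for MIR214, but the listed fold of MIR214 was that of DNM3OS. Of 50 tested genes the authors' deposited table called 17 lower and 3 higher, where 28.0% of all tested rows were called lower and 2.43% higher. By the sign of the fold alone 34 were lower and 16 higher, where 10159 of all 12750 such rows were lower and 2591 higher. The median log2 fold change of the 50 was -0.67, against -0.58 over all 12750 tested rows with values in both groups. Each fold was also set against the median of 11190 genes. By this test 7 of 45 genes on the list lay below the median gene and 3 above it, at an adjusted p under 0.05. Over all 11190 genes 4.58% lay below and 5.66% above.

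Of the host genes, 7 were called lower both by the authors and against the median gene. MIR17HG, the host transcript of the miR-17 to miR-92a cluster, was listed at 3.74 FPKM before and 0.75 FPKM after differentiation. The authors' deposited table gave it a log2 fold change of -2.31 and q = 0.000398. MCM7, a subunit of the replicative helicase whose intron holds MIR106B, MIR93 and MIR25, was listed at 209 and 54.5 FPKM in the same order. The authors' deposited table put its log2 fold change at -1.94, with an implied error of 0.26. SMC4, a condensin subunit that holds MIR15B and MIR16-2, was listed at 52.6 and 17.1 FPKM, and SKA2, a kinetochore-associated gene that holds MIR301A and MIR454, at 78.2 and 29.4 FPKM. NFYC, a transcription factor subunit that holds MIR30E and MIR30C1, was listed at 19.9 and 5.94 FPKM. TLN2, a talin that holds MIR190A, was listed at 7.29 and 2.06 FPKM, and SLIT3, an axon guidance ligand that holds a MIR218 copy, at 28.1 and 10.8 FPKM. The adjusted p of these 7 against the median gene ran from 2.11e-05 for MCM7 to 0.0387 for SLIT3.

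The authors called 3 hosts higher. H19, the imprinted non-coding host of MIR675, was listed at 3.76 FPKM before and 207 FPKM after differentiation, the steepest rise in the list. IGF2, the growth factor gene that holds MIR483, was listed at 63.9 and 185 FPKM in the same order. PTPRN, a secretory granule protein that holds MIR153-1, was listed at 2.82 and 6.45 FPKM. All 3 also lay above the median gene. Their log2 fold changes in the authors' deposited table were 5.78, 1.54 and 1.19, with implied errors of 0.28, 0.20 and 0.38.

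Several hosts of microRNAs from the neural list were not called. LINC00461, host of MIR9-2, was listed at 2.09 and 0.91 FPKM and MIR137HG at 4.92 and 2.30 FPKM, undifferentiated first. MIR7-3HG was listed at 0.59 and 2.96 FPKM, and the authors' deposited table put its log2 fold change at 2.32, with an implied error of 1.24. ARPP21, host of MIR128-2, was listed at 0.070 and 0.54 FPKM, and R3HDM1, host of MIR128-1, at 5.82 and 3.57 FPKM. None of these genes was called by the authors, where 30.4% of all tested rows were called in either direction. HNRNPK, an abundant RNA-binding protein gene that holds MIR7-1, was marked as lower by the authors' deposited table, from 488 to 204 FPKM, but did not pass against the median gene, with an adjusted p of 0.0644. The 3 hosts of the MIR26 family, CTDSP1, CTDSP2 and CTDSPL, which encode small phosphatases, all fell by the authors' deposited table and none lay below the median gene. HUWE1, a ubiquitin ligase that holds MIR98 and MIRLET7F2, was called lower at a log2 fold of -0.96 by the authors' deposited table, with an implied error of 0.23, but the call was lost against the median gene, with an adjusted p of 0.453. LINC00478, host of MIRLET7C, was given a log2 fold of -0.35 by the authors' deposited table, with an implied error of 0.52, and was not called. MIR100HG, host of MIRLET7A2, was not tested by the authors.

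**Figure D4:**
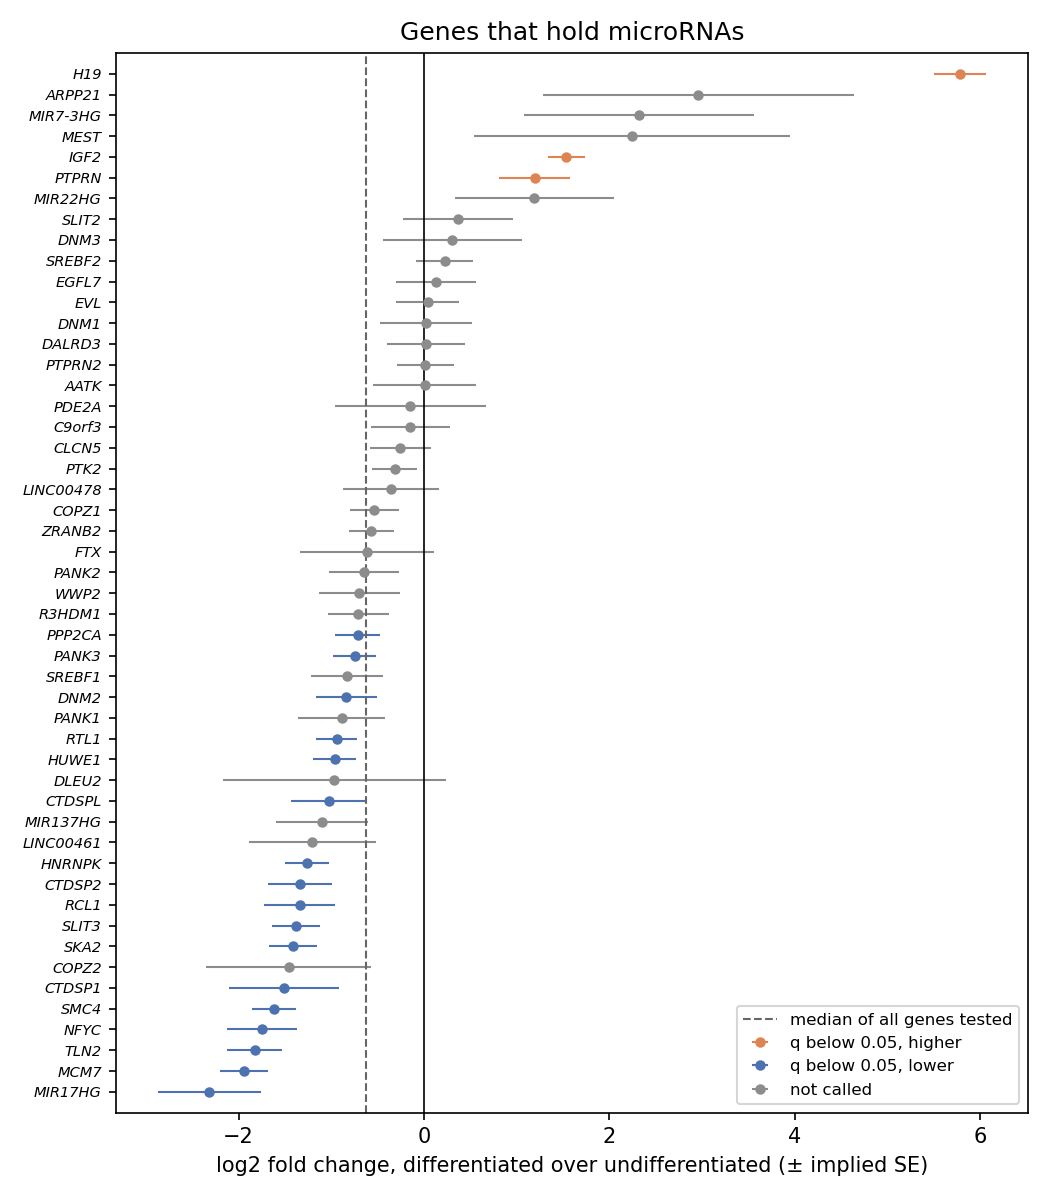
The log2 fold change of each tested gene on the list of genes that hold or overlap microRNAs, with the standard error implied by the authors' statistic as bars. Colour shows the authors' call and the dashed line the median gene at -0.62. H19 stands apart at 5.78, and all genes called lower lie between the dashed line and MIR17HG at -2.31.

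Most genes that make and use microRNAs fell, as did most of the table by sign of fold. Of 28 listed genes 27 were tested, and the authors' deposited table called 17 lower and none higher, where 28.0% of all tested rows were called lower. All 27 had a negative fold, with a median log2 fold change of -1.02. Over all 12750 tested rows with values in both groups, 10159 had a negative fold and the median was -0.58. In the nuclear step, DROSHA was listed at 12.3 FPKM before and 5.96 FPKM after differentiation, and DGCR8 at 6.14 and 2.68 FPKM. XPO5, which exports the hairpin, was listed at 14.6 and 6.61 FPKM, and DICER1 at 14.4 and 7.24 FPKM. The authors' deposited table called all 4 lower, with log2 fold changes from -0.99 to -1.20. Among the Argonaute genes, listed by their older names, EIF2C1 and EIF2C2 fell by the authors' deposited table, and EIF2C3 and EIF2C4 were not called. Of the scaffold genes for silencing, TNRC6A fell by the authors' deposited table, and TNRC6B and TNRC6C were not.

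Against the median gene most of these calls were lost. By that test 3 of 27 lay below the median gene and none above it, where 4.58% and 5.66% of all genes did. The 3 were SRSF3, a splicing factor that also aids primary microRNA cleavage, LIN28B, which blocks maturation of let-7, and RAN, the GTPase that works with XPO5 in export. SRSF3 was listed at 133 and 44.3 FPKM, undifferentiated first, and its adjusted p against the median gene was 0.00183. LIN28B was listed at 13.3 and 4.81 FPKM, with an adjusted p of 0.0434, and RAN at 285 and 115 FPKM, with an adjusted p of 0.0408. DROSHA, DGCR8, XPO5 and DICER1 had adjusted p from 0.276 to 0.496 in that test. ZCCHC11 and ZCCHC6, which add uridines to let-7 precursors that LIN28 proteins have bound, were not called in the authors' deposited table, at 7.45 and 5.53 FPKM and at 5.55 and 4.13 FPKM.

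**Figure D5:**
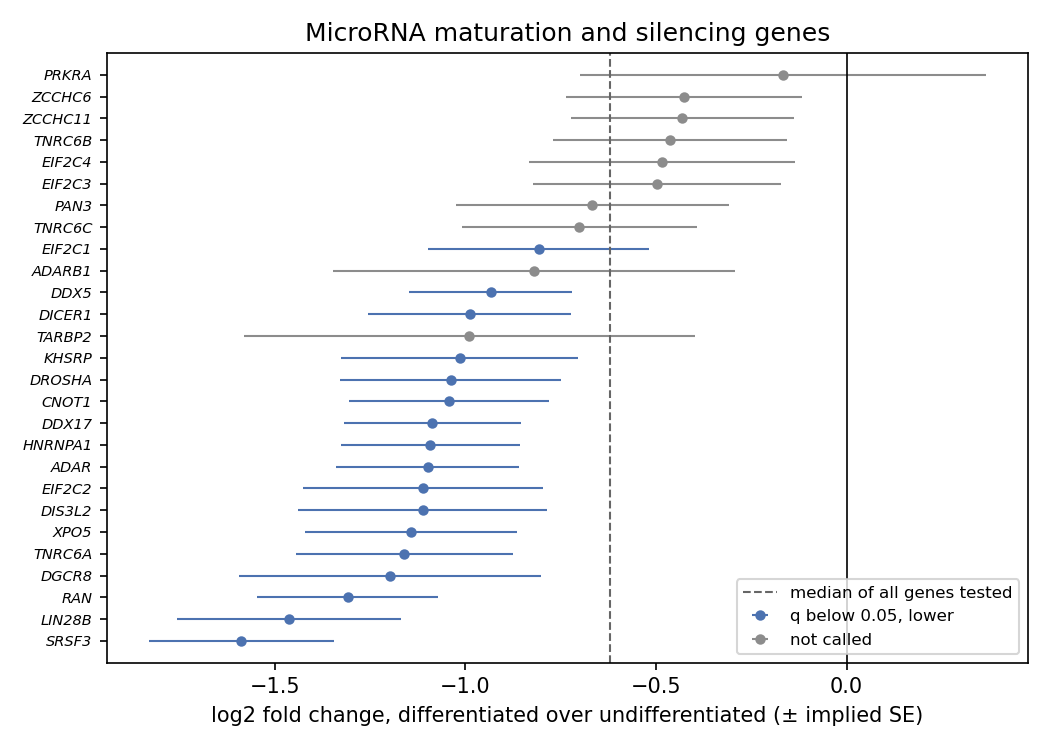
The log2 fold change of the 27 tested genes for microRNA maturation and silencing, with implied standard errors as bars; blue marks genes the authors called lower and the dashed line the median gene at -0.62. Every point lies below 0, and SRSF3, LIN28B and RAN lie farthest left.

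The label of the cells was checked against defining markers. All 7 sympathoadrenal and neuroblastoma markers were at 1 FPKM or more in both groups, summing to 417 FPKM before and 245 FPKM after differentiation. Of 4 glial markers 1 reached 1 FPKM in each group, and of 5 fibroblast markers 3 did, with sums from 3.37 to 4.63 FPKM and from 20.3 to 22.7 FPKM. Of 3 immune markers none reached 1 FPKM in undifferentiated cells and 1 did in differentiated cells, at 1.68 FPKM. The part of such cells in the results was not tested. In RNA from whole cultures, fewer cells of a type and less RNA per cell cannot be told apart.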

How the data were processed

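RNA was sequenced from 4 SH-SY5Y libraries, 2 per group, in 1 lane each, per the labels' protocols. The labels do not say whether replicates were separate cultures, so p-values may measure technical spread. TopHat2 2.0.8, Cufflinks 2.0.2 and hg19 were used, per the submitters' processing notes. The authors deposited 1 FPKM per gene and group, with the log2 fold change between groups and its statistic, p-value and q-value, per the file headers. The sources used here do not give the annotation or how libraries were scaled or combined. The planned limma test needs values per library and was not run, so the authors' q-values were used at 0.05. The implied standard error is the size of the log2 fold change over that of the statistic. Each fold less the median (-0.62, over 11190 tested genes averaging at least 1 FPKM) was divided by this error, with two-sided normal p adjusted by Benjamini-Hochberg, and the step was tested on simulated data. Rows within 10 kb formed a cluster. Listed starts were raised by 1. Lengths and sequences came from RefSeq (GRCh38.p14), and positions within transcripts from GENCODE 29. Overlaps of hairpins with genes were found from the coordinates of these sources, but the chromosome coordinates printed are the authors' hg19 loci. Members and lists were chosen with earlier results of these data known; named genes were the members, the rows at their loci and list genes. Genes at the chromosome 14 and ribosomal loci that are in neither were chosen after their values were seen. The whole table has no unused columns of values per sample. Alternatives covered thresholds, filters, pseudocount, clustering distance and the median gene. Depth is unknown, so no counting interval or floor is given. Python 3.11.15, numpy 2.4.6, pandas 2.3.3, scipy 1.17.1 and matplotlib 3.10.9 were used.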

Additional observations from a re-analysis of the deposited data

How the results depend on the processing

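The authors' test called 0 of the 4 microRNA rows at q under 0.05. A q under 0.01 could then only give 0 as well. A filter of at least 5 FPKM, or no filter, leaves the same 4 tested rows. These settings therefore add nothing to the first result. Against the median gene only MIR127 and MIR3648 could be tested, and neither was called. The median log2 fold change of the members with a value in both groups, 0.76 over MIR127 and MIR3648, was 1.38 relative to the median gene and 2.47 for loci of at most 200 bases, where MIR3648 is the 1 row left. For the pair MIR127 and MIR432 it was -0.95, from MIR127 alone, and -10.16 with a pseudocount of 1 FPKM, which takes in the 0 of MIR432. Genes on the host list called lower went from 17 to 7 relative to the median gene. Maturation and silencing genes went from 17 to 3, since the shift of most genes is then taken away. Clustering at 50 kb changed neither cluster fold. No paired analysis was possible because the table holds 1 value per group, and for the same reason no replicate could be left out. The wide implied errors of MIR127 and MIR3648, 21.4 and 1.61, limit what their folds can show.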

Other observations

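The 4 microRNA rows also moved the comparison of total FPKM between groups. The summed FPKM of differentiated over undifferentiated cells had a log2 ratio of -0.78 over all 23576 rows and of -0.32 without the 4 rows, so a scaling to equal sums would differ between the 2 by more than the median implied error of a tested gene, 0.39.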
